A study of Mus musculus with 8 samples.

Results

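The clustered protocadherins are the genes of the alpha, beta and gamma protocadherin clusters, which lie one after another on mouse chromosome 18. Members were chosen by symbol, as every gene whose name begins with Pcdha, Pcdhb or Pcdhg followed by the cluster's numbering (Pcdhac1 and Pcdhac2 included). This gave 59 members of 21826 genes, 15 of the alpha, 22 of the beta and 22 of the gamma cluster. In NCBI37/mm9, the members of the alpha cluster run from 37089939 to 37347314 (with Pcdha4-g, described below, reaching farther), those of the beta cluster from 37424652 to 37681073, and those of the gamma cluster from 37821599 to 38001526.

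Clustered protocadherins are cadherin-like adhesion proteins of neurons. Each cell transcribes only some of them, and the resulting combination, which binds the same combination on another membrane, serves neurites to tell self from non-self. In the retina the gamma cluster is known for the self-avoidance of starburst amacrine cell dendrites and for the survival of interneurons. In the alpha and gamma clusters each isoform joins its own variable first exon, with its own promoter, to constant exons shared by the whole cluster, whereas each beta gene is a single exon. Most isoforms are chosen by chance in each cell, and the C-type isoforms at the end of the alpha and gamma clusters (Pcdhac1, Pcdhac2, Pcdhgc3, Pcdhgc4 and Pcdhgc5) are regulated apart from the rest.

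RNA was sequenced from 8 samples of wild-type slc:ICR mouse retina, with 1 library per condition and therefore no measure of replicate error. Whole retinas were taken at E15 and E18. At P2, P5 and P8, dissociated cells of pooled retinas were sorted by flow cytometry for Cd73, a surface protein of rod precursors, into a positive (Cd73PC) and a negative fraction (Cd73NC). Cd73PC therefore hold mostly rods, and Cd73NC hold the remaining cell types together. Values are FPKM, in which the fragments of a gene are divided by its exon length and by the mapped fragments of the library, so that levels can be compared between genes. Each ratio below compares 2 libraries and has no test. A member was counted as different when FPKM + 1 differed by more than 1.5-fold. The share of all genes past the same fold is given beside the counts of a comparison, except in the closing recounts at other settings. A log2 ratio is on the scale of FPKM + 1, which understates the difference of weakly expressed members.

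In Cd73 and in rod markers, the libraries matched their labels. Nt5e, which encodes Cd73, was at 97.3, 131 and 124 FPKM in Cd73PC at P2, P5 and P8, against 2.43, 31.4 and 9.38 in Cd73NC. The summed FPKM of 10 rod markers was 5231, 11235 and 17313 in Cd73PC and 203, 1685 and 1444 in Cd73NC. Cd73NC thus kept some rod RNA, most at P5. At P2 the 6 microglia markers were higher in Cd73PC, with a sum of 35.6 FPKM against 6.14 in Cd73NC. Grm6, the glutamate receptor gene of ON bipolar cells, was at 0, 6.58 and 162 FPKM in Cd73NC and at 0.0198, 0.761 and 14.3 in Cd73PC. The 10 ganglion cell markers summed to 1475 at E15 and 845 at E18, but to 51.8 or less in every sorted fraction. Depth relative to E18 whole retina lay between 0.965 and 1.62, and the absolute depth is unknown.

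Reads of 36 bases limit what can be said of a single member. Of the 36-base windows in the first 2000 bases from the start of each member, a median of 76.8% (alpha), 90.6% (beta) and 97.3% (gamma) occurred once in the genome without mismatch. The lowest share was 60.4%, for Pcdha6. At least 90% of these bases lay in an exon of the GENCODE annotation for 42 of the 59 members (11 alpha, 22 beta and 9 gamma) and 0% for the rest, so that for those the windows may not be those of the transcript. The 14 alpha members other than Pcdha4-g end within 3 bases of each other and the 22 gamma members within 9, so that reads from their constant exons were divided among isoforms by the quantification program. The summed FPKM of a cluster depends less on that division than the value of a member does. Pcdha4 and Pcdha4-g show it. They begin 52 bases apart, Pcdha4-g is annotated to end at 37999854, inside the gamma cluster, and one was near 0 wherever the other was not, except at E18. Pcdha4 was at 0.00525, 1.46, 0.406, 0.00136 and 2.53 FPKM in E15, E18 and Cd73NC at P2, P5 and P8, and Pcdha4-g at 0.974, 0.516, 9.02e-05, 0.466 and 4.14e-05. The pair is therefore best read as their sum, which was 0.979, 1.98, 0.406, 0.468 and 2.53.

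All 59 members had a usable estimate in every library, and 55 reached an FPKM of 1 in at least 1 sample. The gamma cluster had the highest summed FPKM in every sample except P2 Cd73PC, where the beta cluster reached 60.1 and the gamma cluster 57.1. The alpha cluster was the lowest throughout, at 4.82 to 35.4. P8 Cd73NC held the most transcript of each cluster. It was the highest of the 8 samples for 53 members, among them all 22 of the gamma cluster, and 54 members reached an FPKM of 1 there against 34 in P5 Cd73PC, the fewest.

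In Cd73NC the summed FPKM of the gamma cluster was 96.2 (P2), 144 (P5) and 285 (P8). For the beta cluster it was 62.5, 100.1 and 137, and for the alpha cluster 6.06, 7.96 and 35.4. In Cd73PC the same sums were 57.1, 61.4 and 85.7 (gamma), 60.1, 49.0 and 52.0 (beta) and 6.99, 4.82 and 7.54 (alpha). The 2 fractions therefore began close together at P2 for alpha and beta and were far apart at P8, with Cd73PC at 115%, 60.5% and 21.3% of Cd73NC for alpha, 96.2%, 49.0% and 37.9% for beta and 59.4%, 42.7% and 30.1% for gamma at P2, P5 and P8. Most of the widening lay in Cd73NC, whose sum over all members was 2.77-fold higher at P8 than at P2, with 457 against 165 FPKM, while in Cd73PC it was 145 against 124. In sorted samples such as these, fewer cells of a type and less RNA per cell cannot be told apart.

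**Figure D1:**
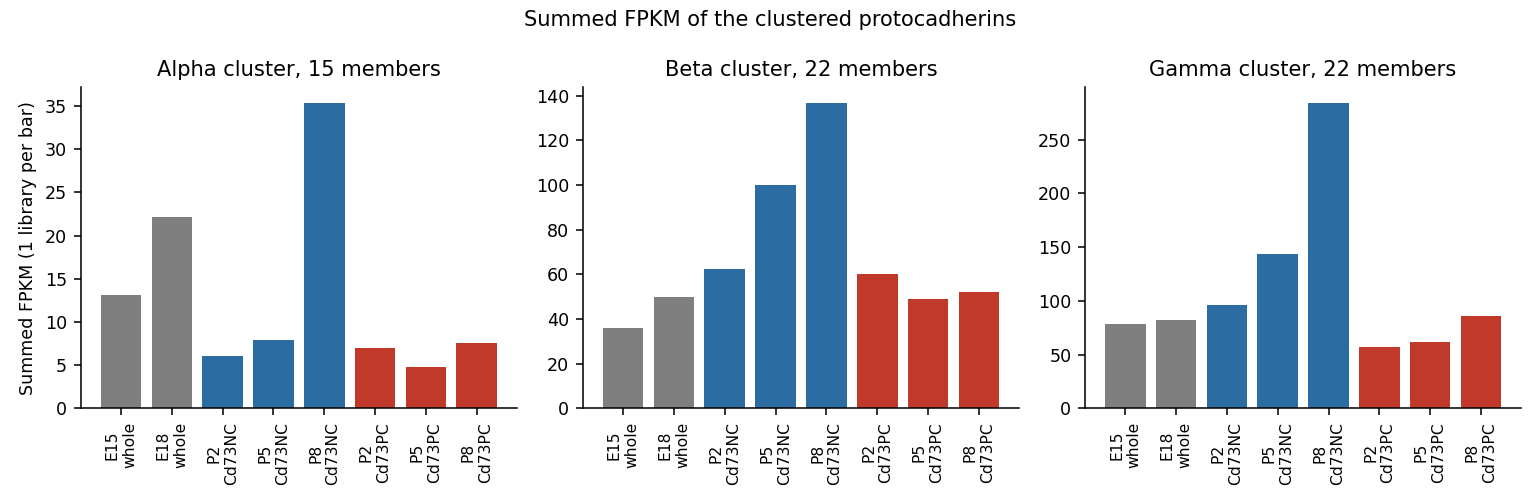
Summed FPKM of the 15 alpha, 22 beta and 22 gamma protocadherins in each of the 8 libraries, with 1 bar per library (grey, whole retina; blue, Cd73NC; red, Cd73PC). P8 Cd73NC stands highest in each panel, at 35.4, 137 and 285, and each panel has its own scale.

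Member by member, few differed between the fractions at P2 and nearly all at P8. At P2, 6 of 59 members were lower in Cd73PC past 1.5-fold, or 10.2%, against 14.4% of all genes, and 1 was higher, against 8.56%. Both shares at P2 were below those of all genes. At P5, 33 were lower (55.9%, against 15.5% of all genes) and 0 higher (7.02% of all genes). At P8, 54 were lower (91.5%, against 18.6%) and 0 higher (7.54%). Among the genes that reached an FPKM of 1 in some sample (13420 with values at P8), 23.3%, 25.1% and 29.6% were lower in Cd73PC at the 3 stages. The median log2 ratio of Cd73PC over Cd73NC over the members was −0.18 (P2), −0.67 (P5) and −1.19 (P8), beside −0.13, −0.17 and −0.22 over those expressed genes. The log2 ratio was lower at P8 than at P2 for all 59 members and lower at P5 than at P2 for 54.

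The size of these counts depended on the scaling. Quantile normalization forces the same distribution on all libraries and moved the median of the expressed genes at P8 from −0.22 to 0.02. The members lower in Cd73PC were then 4, 16 and 35 of 59 at P2, P5 and P8 (6.8%, 27.1% and 59.3%). Of the expressed genes, 19.1%, 17.6% and 20.4% were lower. The median over members was then −0.06, −0.33 and −0.74. The summed FPKM of the alpha cluster in Cd73PC was then 0.926 of that in Cd73NC at P5 and 0.36 at P8, in place of 0.605 and 0.213. The confidence bounds that Cufflinks gave with each FPKM, which cover the counting and assignment of reads within a library and not the difference between animals, lay apart with Cd73PC below Cd73NC for 16, 44 and 57 members (25.5%, 26.1% and 30.4% of all genes). They lay apart with Cd73PC above for 3, 0 and 0 members (16.1%, 12.2% and 12.9%). Of the 31 members with at least 90% of their windows in a single place, 29 were lower at P8, and of the other 28, 25.

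**Figure D2:**
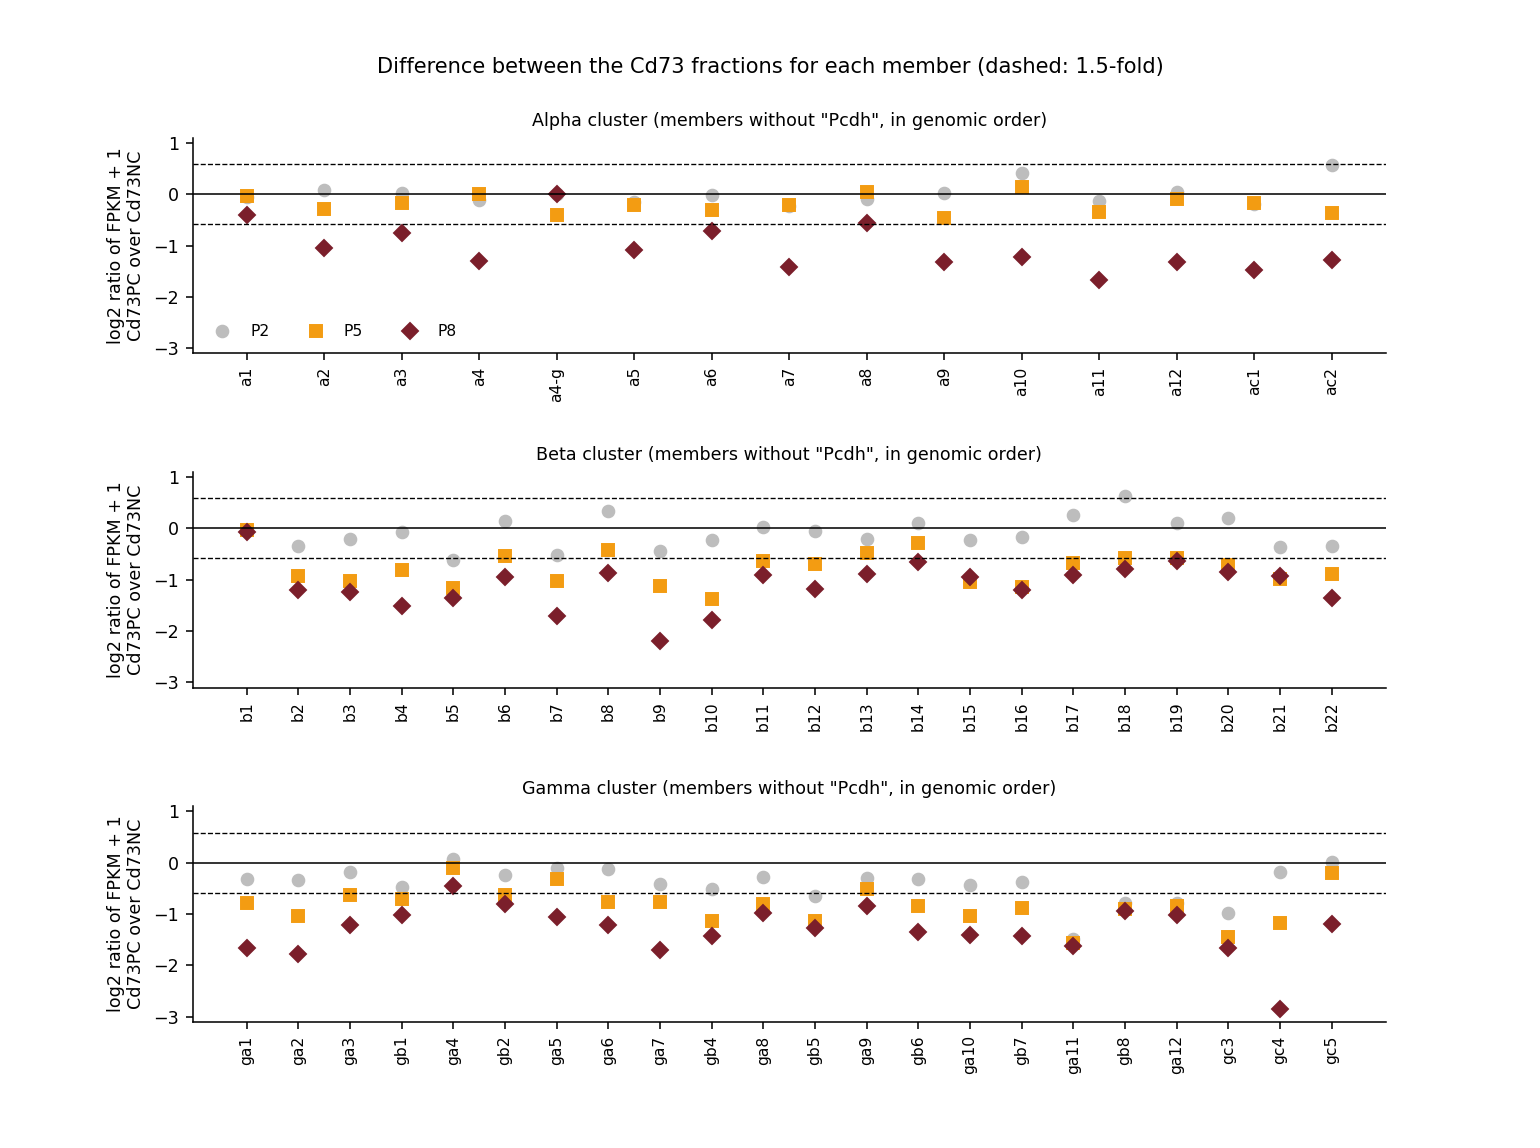
log2 ratio of FPKM + 1 of Cd73PC over Cd73NC for each of the 59 members, in genomic order, at P2 (grey circles), P5 (orange squares) and P8 (dark red diamonds), with dashed lines at 1.5-fold. At P8 54 members lie below the lower line and Pcdhgc4 is the lowest at −2.85.

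By cluster, the counts on FPKM + 1 were as follows, beside 14.4%, 15.5% and 18.6% of all genes at P2, P5 and P8. The shares of the expressed genes were 23.3%, 25.1% and 29.6%. The gamma share at P2, 22.7%, was near that of the expressed genes. In the gamma cluster, 5 members were lower in Cd73PC at the first stage, 18 at the next and 21 at the last. In the beta cluster these numbers were 1, 15 and 21. In the alpha cluster they were 0, 0 and 12, but the low FPKM of alpha members leaves little room on this scale. With 0.1 in place of 1 added to FPKM, the median log2 ratio over the alpha members at P5 was −0.67 in place of −0.21, past 1.5-fold, and the bounds of 6 alpha members lay apart there. A later separation of the alpha members therefore cannot be read from these counts, and no difference between clusters was tested. The members lower at all 3 stages were Pcdhb5, Pcdhga11, Pcdhga12, Pcdhgb5, Pcdhgb8 and Pcdhgc3.

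Pcdhgc3, a C-type isoform known for its part in dendrite branching, had the highest FPKM of all 59 members in each of the 8 samples. It was at 22.6 and 21.6 FPKM in E15 and E18 whole retina, at 33.1, 49.5 and 85.9 in Cd73NC at P2, P5 and P8, and at 16.2, 17.4 and 26.3 in Cd73PC. Every Cd73NC value lay above every other sample, and the bounds of the 2 fractions did not overlap at any stage. The log2 ratio of Cd73PC over Cd73NC was −0.99, −1.46 and −1.67. Pcdhgc3 made up between 26.1% and 34.5% of the summed FPKM of its cluster, a narrow range given how far the sums differed.

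Pcdhgc4, the C-type isoform known to be needed for the survival of neurons, had the lowest log2 ratio of all members at P8 on the scale of FPKM + 1. It was at 2.36 FPKM in E15, 4.79 in E18, 1.65, 2.72 and 41.1 in Cd73NC at P2, P5 and P8, and 1.32, 0.651 and 4.84 in Cd73PC. One library, P8 Cd73NC, thus stood apart from the other 7, with bounds of 39.3 to 43.1. Its share of the summed FPKM of the gamma cluster was 14.4% there and 1.89% in P5 Cd73NC. The log2 ratio of Cd73PC over Cd73NC was −0.19, −1.17 and −2.85. Without the 1 added to FPKM, P8 Cd73PC was at 11.8% of Cd73NC for Pcdhgc4 and lower still for Pcdhac1, at 9.05%, and for Pcdha11, at 10.97%. Pcdhgc5, the last gene of the cluster, was near 0 until P8 Cd73NC, where it was at 1.94 FPKM. The remaining values lay between 0.0981 and 0.288.

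The alpha C-type isoforms were likewise highest in P8 Cd73NC, at lower levels. Pcdhac2, which is known for the tiling of serotonergic axons, was the highest alpha member in every sample. It was at 2.72 and 4.95 FPKM in E15 and E18, at 1.36, 2.92 and 8.91 in Cd73NC and at 2.52, 2.03 and 3.05 in Cd73PC. At P2 it was thus higher in Cd73PC than in Cd73NC, with a log2 ratio of 0.58, just inside 1.5-fold, and at P8 it was lower, with −1.29. Pcdhac1 was at 2.36 FPKM in P8 Cd73NC and at 0.836 or less in the other samples. Outside P8 Cd73NC, E18 whole retina gave the highest value of both alpha C-type members.

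**Figure D3:**
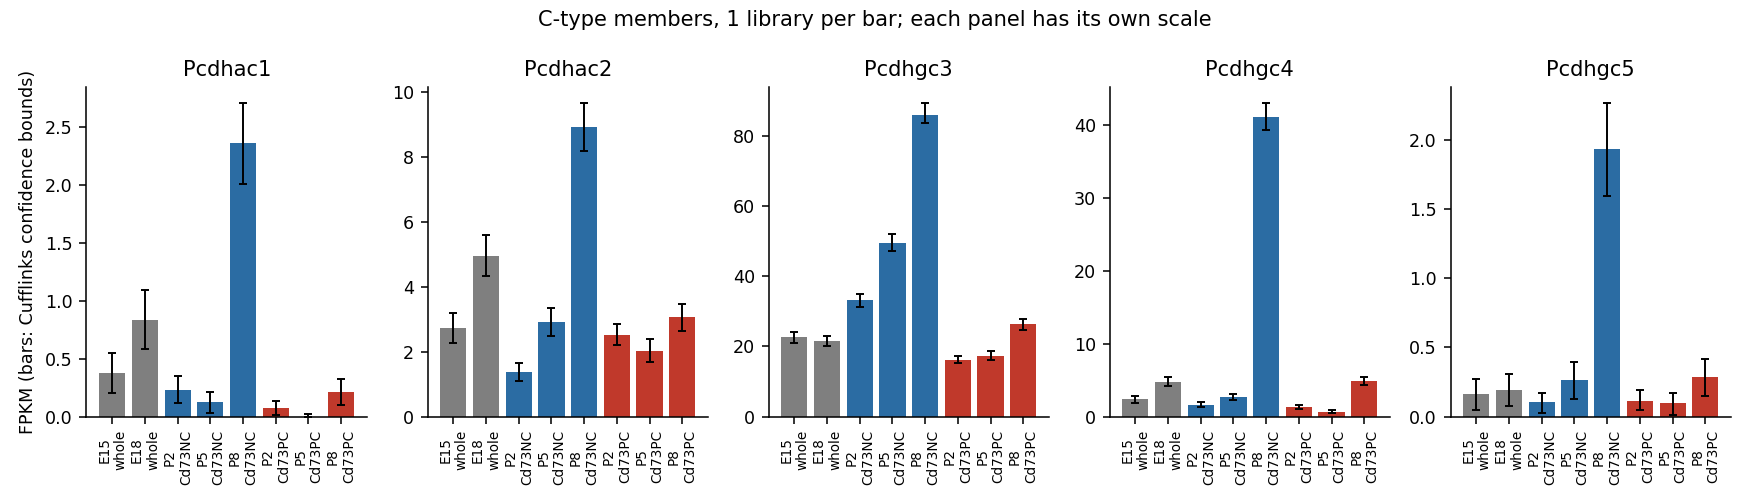
FPKM of the 5 C-type members in each library (grey, whole retina; blue, Cd73NC; red, Cd73PC), with the confidence bounds that Cufflinks gave and a separate scale in each panel. All 5 are highest in P8 Cd73NC, and Pcdhgc4 is at 41.1 there and at 4.84 or less elsewhere.

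Among the other gamma members, Pcdhgb7 was among the 3 highest of its cluster in every sample. Pcdhga11 was lower in Cd73PC than in whole retina and Cd73NC, but stayed above the gamma medians of 1.66, 1.87 and 2.41 in Cd73PC at P2, P5 and P8. Pcdhgb7 was at 5.94 and 5.72 FPKM in E15 and E18, at 7.67, 13.9 and 19.5 in Cd73NC and at 5.64, 7.06 and 6.60 in Cd73PC. Pcdhga11 was at 6.33 and 6.68 FPKM in E15 and E18, at 8.74, 8.69 and 15.6 in Cd73NC and at 2.49, 2.25 and 4.37 in Cd73PC. It differed between the fractions by nearly the same amount at every stage, with log2 ratios of −1.48, −1.58 and −1.63, and was the gamma member with the lowest ratio at P2 and at P5. Pcdhgb8 and Pcdhga12, its next neighbours in the array, were also lower in Cd73PC at all stages, with −0.78, −0.90 and −0.95 for Pcdhgb8 and −0.79, −0.84 and −1.03 for Pcdhga12. Pcdhgb5 was at 4.25, 5.99 and 10.04 FPKM in Cd73NC and at 2.32, 2.19 and 3.57 in Cd73PC. At the other end, Pcdhga4 differed least in the gamma cluster. It was at 2.88, 5.04 and 8.43 FPKM in Cd73NC and at 3.09, 4.60 and 5.84 in Cd73PC, with log2 ratios of 0.07, −0.11 and −0.46, and was the only gamma member inside 1.5-fold at P8.

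In the beta cluster Pcdhb17 was the highest member in all 8 samples. It was at 4.58 and 7.11 FPKM in E15 and E18. At P2, P5 and P8 it was at 9.09, 16.1 and 15.9 in Cd73NC and at 11.03, 9.73 and 7.97 in Cd73PC. Pcdhb20 was at 4.67 in Cd73NC and 5.57 in Cd73PC at P2, and at 10.2 and 5.22 at P8. Both were higher in Cd73PC at P2 only. The log2 ratios there, 0.25 and 0.21, were inside 1.5-fold, and the bounds of the 2 fractions overlapped. Pcdhb22, the last gene of the array, was at 10.4 FPKM in P8 Cd73NC and at 3.46 in P8 Cd73PC. Pcdhb18 was the 1 member higher in Cd73PC past 1.5-fold at P2, with 4.14 against 2.32 FPKM, and was lower at P8, with 3.22 against 6.26. Pcdhb5 was lower in Cd73PC at every stage, with 2.53, 2.95 and 3.89 FPKM in Cd73NC and 1.30, 0.760 and 0.904 in Cd73PC. Pcdhb9 and Pcdhb10 lie side by side and had the lowest beta ratios, −2.20 for Pcdhb9 at P8 and −1.38 for Pcdhb10 at P5. Pcdhb9 was at 9.06 FPKM in P8 Cd73NC and 1.19 in P8 Cd73PC. Pcdhb1, the first gene of the array, did not exceed 0.0973 FPKM in any sample and was the 1 beta member not lower past 1.5-fold at P8.

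In the alpha cluster, Pcdha11 had the lowest ratio at P8, where it was at 3.35 FPKM in Cd73NC and 0.368 in Cd73PC, a log2 ratio of −1.67. Pcdha10 was at 3.32 and 0.862 FPKM there, and Pcdha12 at 3.20 and 0.680. At P2 and P5, Pcdha10 was instead higher in Cd73PC, with 0.863 against 0.400 and 0.730 against 0.568, all below an FPKM of 1. Pcdha7 was at 2.88 FPKM in P8 Cd73NC and 0.444 in P8 Cd73PC, and Pcdha9 at 2.78 and 0.522. Pcdha1, Pcdha8 and Pcdha4-g were the alpha members not past 1.5-fold at P8. None of these exceeded 0.592 FPKM there.

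**Figure D4:**
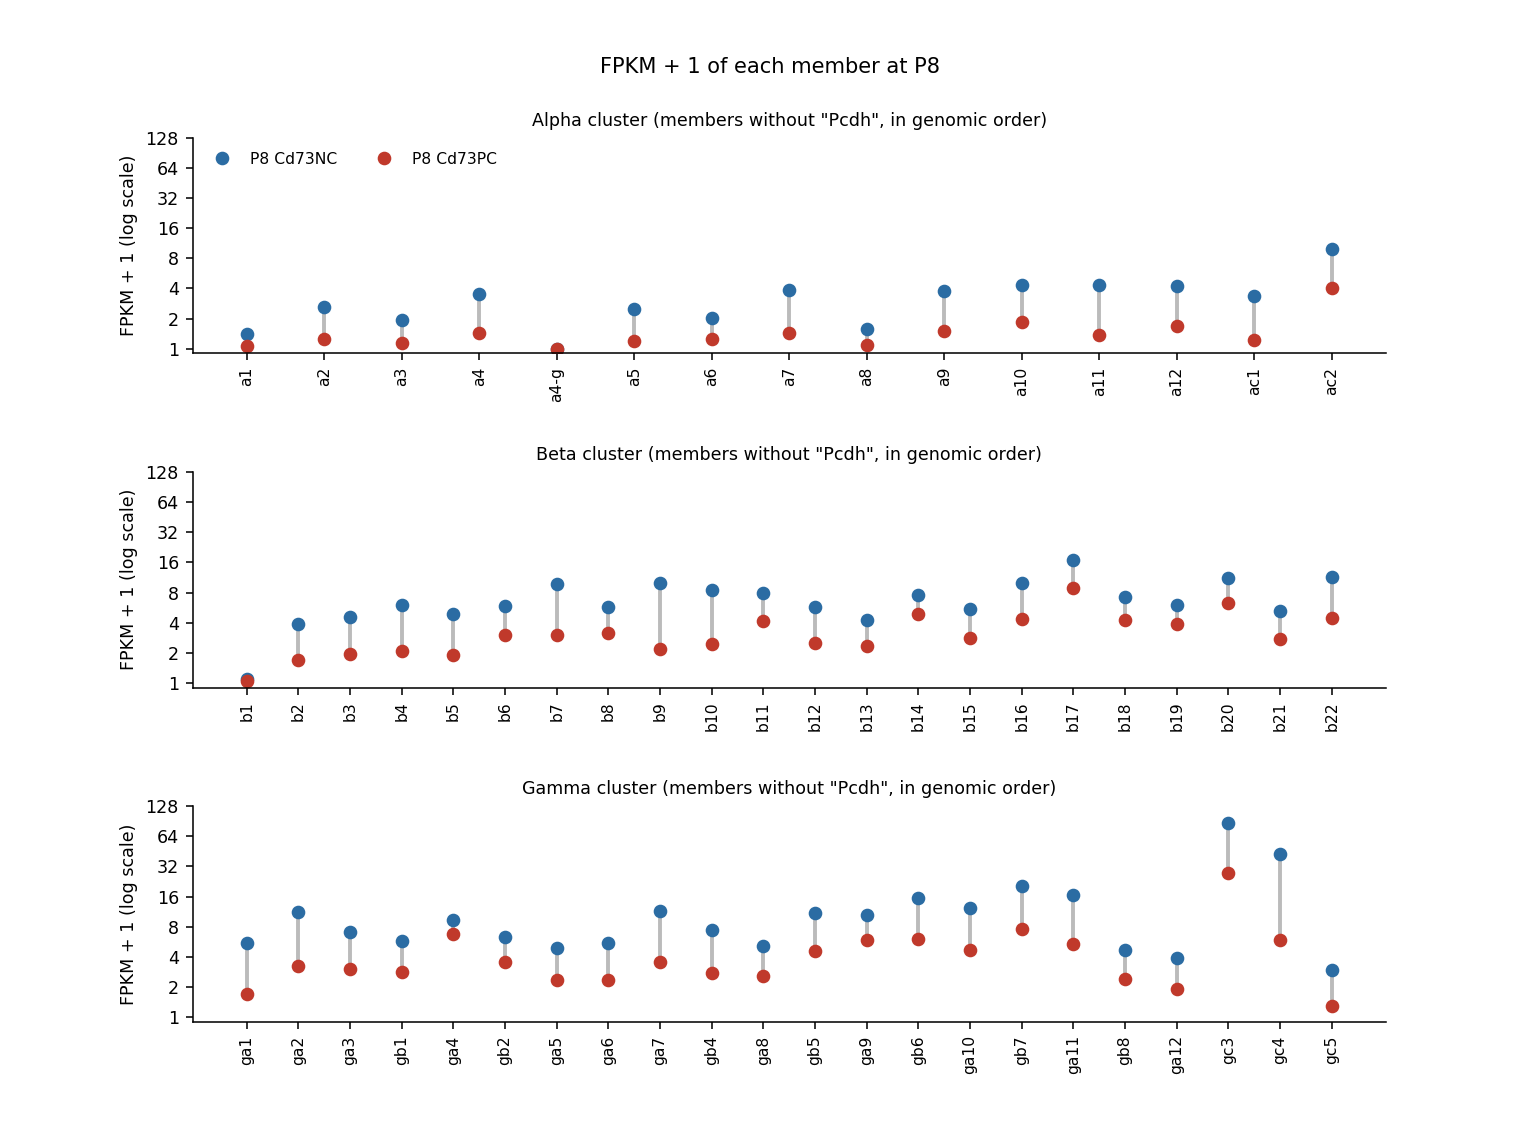
FPKM + 1 of each member at P8 in Cd73NC (blue) and Cd73PC (red), in genomic order, on a logarithmic axis; a grey line joins the 2 values of a member. Cd73NC is the higher of the 2 for 58 of 59 members.

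Between consecutive stages, many members were higher at the later stage in Cd73NC and few differed in Cd73PC. From P2 to P5, 12 members were higher in Cd73NC past 1.5-fold, or 20.3%, against 7.93% of all genes, and 0 were lower (9.51%). From P5 to P8, 30 were higher, 10 of the alpha, 5 of the beta and 15 of the gamma cluster, against 8.47% of all genes, and 0 were lower (7.78%). The median log2 ratio from P5 to P8 was 1.19 over the alpha, 0.42 over the beta and 0.65 over the gamma members, and −0.04 over the expressed genes. In Cd73PC, 0 members were higher and 1 lower from P2 to P5 (3.36% and 8.57% of all genes), and 3 were higher and 0 lower from P5 to P8 (3.31% and 4.78%). From E15 to E18 in whole retina, 5 members were higher and 0 lower, against 4.6% and 2.1% of all genes. The summed FPKM of the alpha cluster was 13.1 at E15 and 22.2 at E18, and 11 of its 15 members reached an FPKM of 1 at E18, as many as in P8 Cd73NC and against 1 in each of the remaining sorted fractions. The beta sum was 36.03 and 49.7 and the gamma sum 78.7 and 82.6. Whole retina and sorted cells hold different cells, so that E18 and P2 were not compared as a course.

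Genomic order and level went together in part of the data. In the beta cluster, genes nearer the downstream end had higher FPKM, with a Spearman rho between order and FPKM from 0.40 in E15 to 0.76 in P8 Cd73PC over 22 members. In the alpha cluster (Pcdha1 to Pcdha12, 12 members), rho was 0.14 in E15 and −0.12 in E18. At P2, P5 and P8 it was 0.64, 0.71 and 0.73 in Cd73NC and 0.43, 0.58 and 0.66 in Cd73PC. Pcdha4 was ranked here without Pcdha4-g, so its values near 0 at E15 and P5 entered these ranks. At E18, Pcdha1 to Pcdha6 summed to 8.21 FPKM and Pcdha7 to Pcdha12 to 7.69. In P8 Cd73NC the same groups held 8.02 and 16.1. The upstream sum was thus about as at E18 and the downstream sum higher. Among the upstream members, Pcdha3 was at 2.01 (E18) and 0.926 (P8 Cd73NC). Pcdha4 and Pcdha4-g together were at 1.98 and 2.53. Both upstream sums hold Pcdha4 without Pcdha4-g. In the gamma cluster without its C-type members rho lay between 0.02 and 0.31 over 19 members. These values share libraries, and neighbouring members share sequence, so they are given as a description.

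**Figure D5:**
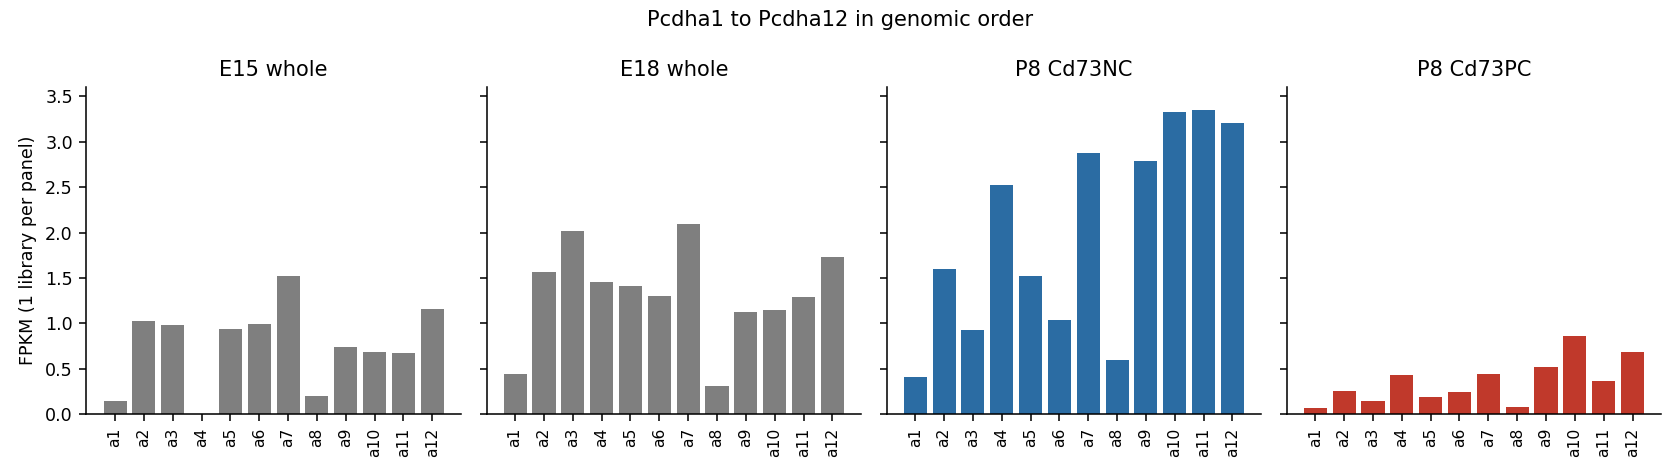
FPKM of Pcdha1 to Pcdha12 in genomic order in E15 and E18 whole retina (grey), P8 Cd73NC (blue) and P8 Cd73PC (red), with 1 library per panel and Pcdha4 shown without Pcdha4-g. The first 6 and the last 6 members sum to 8.21 and 7.69 at E18 and to 8.02 and 16.1 in P8 Cd73NC.

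The rank order of the members within a cluster was kept to different degrees. Between P8 Cd73NC and P8 Cd73PC, Spearman's rho of the FPKM was 0.73 over the 22 beta members, 0.85 over 19 gamma members and 0.89 over 11 alpha members (C-type members, Pcdha4 and Pcdha4-g left out). Between E18 whole retina and P8 Cd73NC it was 0.78, 0.89 and 0.27. Between E18 and the earlier Cd73NC, rho over the alpha members was 0.52 at P2 and 0.24 at P5, beside 0.88 and 0.73 over beta and 0.85 and 0.90 over gamma members. The order of the alpha members at E18 was thus kept less in Cd73NC at P5 and P8 than at P2, over 11 members whose FPKM in Cd73NC was below 1 at P2 and P5.

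Markers of other retinal cell types than rods also differed between these samples, in both directions. From P5 to P8 in Cd73NC, the bipolar markers Grm6, Cabp5, Trpm1, Prkca and Isl1 were higher. Isl1, which also marks ganglion and starburst cells, was at 26.8 and 294 FPKM, Cabp5 at 7.85 and 183, and Trpm1 at 1.83 and 74.0. Otx2, which photoreceptors also express, was at 851 and 552. Of 6 microglia markers, 5 were higher and 0 lower over the same step, beside 8.47% and 7.78% of all genes, and their sum was 43.5 at P5 and 129 at P8. Of the 7 amacrine markers in the files, 1 was higher and 5 were lower. The 1 higher was Prox1, which horizontal and bipolar cells also express, at 40.9 and 166 FPKM, whereas Pax6 was at 65.03 and 27.7, Calb2 at 8.86 and 0.607 and Gad2 at 4.28 and 1.54. Of 8 Müller glia markers 1 was higher and 3 lower, and they summed to 2129 (P5) and 1535 (P8) FPKM in Cd73NC. At P8, Cd73PC held 11.8% of the Cd73NC level of Pcdhgc4 and 30.7% of Pcdhgc3. For the 8 bipolar markers it held from 7.70% (Vsx1) to 63.9% (Otx2), with Isl1 at 10.1%. For the 7 amacrine markers it held from 12.8% (Prox1) to 487% (Slc6a9). The microglia markers summed to 99.0 in P8 Cd73PC. Of 7 starburst amacrine markers, 3 were at 0 in both fractions at P8. These were Chat, Slc18a3 and Slc5a7, and none of them exceeded 0.0521 FPKM at P5. The other markers of that list, Megf10, Megf11, Sox2 and Isl1, were at 7.40, 1.29, 20.0 and 294 FPKM in P8 Cd73NC. The part of any of these cell types in the protocadherin levels was not tested.

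Genes known to regulate the clusters were mostly inside 1.5-fold between the fractions. The insulator protein CTCF and the cohesin complex, which loop the promoters of the clusters to their enhancers, were expressed in all samples. Ctcf was at 62.1, 46.5 and 42.9 FPKM in Cd73NC and at 53.2, 40.0 and 38.2 in Cd73PC. Rad21, a cohesin subunit, was at 175, 114 and 77.6 in Cd73NC and 163, 103 and 87.4 in Cd73PC. Of 16 regulators with values in both fractions, 5, 4 and 3 were lower in Cd73PC past 1.5-fold at P2, P5 and P8, beside 14.4%, 15.5% and 18.6% of all genes. At the same stages 0, 0 and 2 were higher, beside 8.56%, 7.02% and 7.54%, and the median log2 ratio was −0.16 at P8. The 3 of 16 lower at P8 were thus at the share of all genes. Of the expressed genes, 23.3%, 25.1% and 29.6% were lower at P2, P5 and P8. Rest, a repressor of neuronal genes that binds an alpha cluster enhancer, had the lowest mean log2 ratio, at 6.48 FPKM in P8 Cd73NC and 0.938 in P8 Cd73PC. Dnmt3a, a DNA methyltransferase, had the highest, at 33.8 and 44.6.

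Genes of proteins that act with the clustered protocadherins were lower in Cd73PC in part. Of 17 with values, 4, 11 and 7 were lower at P2, P5 and P8 and 0, 1 and 1 higher, beside the shares of all genes just given. The 4 lower at P2 were near the 23.3% of the expressed genes. Marcks, an actin regulator through which the gamma protocadherins act on dendrites, was at 485, 281 and 214 FPKM in Cd73NC and 251, 94.6 and 52.8 in Cd73PC. Fyn, a kinase bound by alpha protocadherins, was at 29.03 and 5.58 at P8, and the GTPase gene Rac1 at 106 and 47.8. Wasf3, of the WAVE complex, was the opposite, with 42.1 and 73.1.

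Nonclustered protocadherins, which lie outside these clusters and have their own promoters, were split. Of 13, 8, 9 and 9 were lower in Cd73PC at P2, P5 and P8, beside 14.4%, 15.5% and 18.6% of all genes, and 2 were higher at each stage (8.56%, 7.02% and 7.54%), with a median log2 ratio of −0.93, −0.93 and −1.33. They were thus already apart at P2, where the median over the clustered members was −0.18. The lowest was Pcdh8, at 26.7 FPKM in P8 Cd73NC and 2.04 in P8 Cd73PC. Higher in Cd73PC were Cdhr1, a photoreceptor cadherin of the outer segment base, with 118 and 917 FPKM at P8, and Pcdh15, with 5.21 and 19.8. No clustered member was higher in Cd73PC past 1.5-fold at P8. Other genes of self-avoidance and lamination gave 2 higher and 7 lower of 11 at P8, beside 7.54% and 18.6% of all genes, with Sema6a at 11.03 and 1.37 FPKM and its receptor gene Plxna2 at 4.92 and 44.3. Dscaml1, of the DSCAM adhesion family, was at 27.6 and 22.5.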

How the data were processed

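The authors made poly(A)-selected libraries and sequenced single reads of 36 bases. They aligned them to NCBI37/mm9 with TopHat 2.0.8b, which kept reads with several places in the genome, and estimated expression with Cufflinks 2.1.1 (tools and versions also in the submitters' processing notes). The deposited tables give the FPKM of 23021 rows per library, with its confidence bounds and a status. The libraries do not mark strand, so sense and antisense reads cannot be told apart. Read counts are not used here.

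Rows sharing a symbol (234 symbols) were summed, 798 rows of small RNAs were left out, and failed estimates, 4 to 10 rows per table and 0 among the members, were taken as missing. The 59 members had 1 row each, and 0 of their 472 values lay outside their own bounds. With 1 library per group no test was run, and differences were counted on FPKM + 1 at the 1.5-fold threshold of the study. Depth relative to E18 was read from ratios of rows under FPKM 0.3. Windows of 36 bases were searched for on both strands of NCBIM37, and 37 members begin within 1 base of a GENCODE vM1 transcript. Start coordinates count from 0 in the files, and 1 was added. No sequence is printed.

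The members and gene lists were chosen with earlier results of these data known. The genes named are the 5 C-type members, in each cluster the 3 members with the highest mean FPKM and those with the highest and lowest ratio of Cd73PC over Cd73NC at each stage, members past 1.5-fold in the same direction at all 3 stages or higher in Cd73PC at any stage, and in each other list the 2 genes with the highest mean FPKM and those with the highest and lowest mean ratio. Pcdha1, Pcdha4, Pcdha6, Pcdha8, Chat, Slc18a3, Grm6 and the other bipolar and amacrine markers with values were named after their values were seen. Tfap2a, Tfap2b, Tfap2c and Brk1, which are in the lists, were not analysed here, and Mau2 failed in 3 libraries. A marker of other cells, and the list sums that hold it, are not reported here. Alternatives were a pseudocount of 0.1, quantile normalization, an equal upper quartile in every library, a threshold of 2-fold and other minimum levels of FPKM. A value was called moved past a change of 1.5-fold. The counting code was tested by putting known fold changes into the measured values. It used numba 0.67.0, pandas 2.3.3, numpy 2.4.6, matplotlib 3.10.9 and scipy 1.17.1 under Python 3.11.15.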

Additional observations from a re-analysis of the deposited data

Results flagged for a closer look

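Pcdhb18 went one way at P2 and the other at P8. Its log2 ratio of Cd73PC over Cd73NC was 0.63 at P2 and −0.78 at P8, past 1.5-fold in both. The difference between the stages was not tested, since each rests on 1 library per fraction.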

How the results depend on the processing

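No paired analysis was possible because, within a stage, each fraction has 1 library. The fractions of a stage came from the same retinas, but a fit of the fraction over the 3 stages, with the stage as a block, was not run, since the stages are different conditions and not replicates. No library could be left out in turn. Of 152 recounts of members, 116 stayed within 1.5-fold of the count given, and of 144 medians and 36 ratios of sums all but 2 each did. Of 441 recomputed values of named genes, 19 moved and 0 reversed. The share of all genes is not given for the pseudocount of 0.1 or for 2-fold. Those recounts cannot be read against it. With a pseudocount of 0.1, 3 members were higher and 13 lower in Cd73PC at P2. From E15 to E18, 14 were then higher and 2 lower, from P2 to P5 26 and 2 in Cd73NC and 2 and 12 in Cd73PC, and from P5 to P8 1 was lower in Cd73NC and 16 were higher and 1 lower in Cd73PC. The alpha medians were then −2.08 at P8 between the fractions and 2.00 from P5 to P8 in Cd73NC, since a smaller pseudocount shrinks the ratios of low values less. Scaled to the same upper quartile, 2 members were higher in Cd73PC at P2 (15.5% of the expressed genes). From P2 to P5, 19 were then higher in Cd73NC (13.8%) and 1 higher and 0 lower in Cd73PC (6.84% and 11.3%). From P5 to P8, 5 were higher in Cd73PC (5.9%). With quantile normalization, 2 were higher in Cd73PC at P2 (16.2% of the expressed genes), 16 lower at P5 (17.6%) and 35 lower at P8 (20.4%). The alpha sums were then at 0.926 and 0.36 of Cd73NC at P5 and P8. From E15 to E18, 2 were higher (5.82%). In Cd73PC 3 were higher and 0 lower from P2 to P5 (7.85% and 8.64%) and 5 higher from P5 to P8 (6.53%). The cause of these shifts was not tested. At a threshold of 2-fold, 0 members were higher and 1 lower in Cd73PC at P2 and 14 lower at P5, 1 was higher from E15 to E18, in Cd73NC 0 were higher over the step to P5 and 13 over that to P8, and in Cd73PC 0 were lower over the former and 1 higher over the latter. At an FPKM of at least 2, 21 members were counted in E15, 29 in E18 and 23, 20 and 25 in Cd73PC at P2, P5 and P8. Summing Pcdha4 and Pcdha4-g, chosen after seeing the data, moved no count past 1.5-fold. Absolute depth is unknown, so no limit can be set on members listed at or near 0.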
